A study of Homo sapiens with 72 samples.

Results

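The genes described here are 41 soluble proteins of the lysosome lumen, namely proteases, glycosidases, sulfatases, lipid and phosphate hydrolases, and the small activator and binding proteins that work beside them. They were listed by known function, and although earlier results of these data were known when the list was made, no measured value entered its rule. They are 41 of 54878 genes to which the transcripts in the 72 libraries could be assigned, and 40 of them passed the filter on low counts. The exception was CTSF, which encodes cathepsin F and was listed at 0 in 23 of 24 samples. The RNA came from PEO1, an established line of high-grade serous ovarian cancer cells, treated for 2 or 24 h with 8.5 µM rucaparib or with DMSO (Vehicle). Rucaparib is a PARP inhibitor whose own fluorescence allows treated cells to be sorted by drug content. At each time there were 4 groups. Ruc_High and Ruc_Low were the 20% of rucaparib-positive cells with most and with least drug fluorescence. The others were Ruc_Total, treated cells that were not sorted, and unsorted Vehicle. The sorted cells had been detached, filtered and run through a sorter, while cells of Ruc_Total and Vehicle were scraped into lysis buffer. The question put to these genes is therefore first whether Ruc_High differed from Ruc_Low, and second whether Ruc_Total differed from Vehicle. All 8 groups are 1 cell line, and a sorted gate is a mixture of cells, so in this bulk RNA a change in the share of cells that express a gene and a change in RNA per cell cannot be told apart.

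Lysosomal hydrolases are made in the endoplasmic reticulum, most are tagged with mannose 6-phosphate in the Golgi, and they are carried by receptors to the lysosome, where the acid lumen makes them active. Cathepsins cut proteins, glycosidases and sulfatases take sugar chains apart from their ends, and lipases, ceramidase and sphingomyelinase break down membrane lipids, many of them with the help of saposins, which are cut from prosaposin. Weak bases that cross membranes are trapped in the same acid lumen, which is why these genes are of interest beside a drug whose content differs between cells. Many of the genes are targets of TFEB and TFE3, transcription factors that bind a palindromic element, TCACGTGA, with CACGTG at its core.

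Each group had 3 replicates with 3 libraries each, which were summed to 24 samples, and a library held 17391033 to 38899905 estimated reads (median 33431403). The members took 0.252% to 0.395% of the gene reads of a library. Epithelial and serous markers were present in all libraries (median TPM 53.7 for PAX8, 15.8 for WT1 and 334 for EPCAM), while the leukocyte markers PTPRC, CSF1R and CD3E were under 1 TPM in 72 of 72 libraries. The summed TPM of the 7 leukocyte markers, to which CD68 and CD14 gave most, ranged from 9.27 to 25.6 in Ruc_High and 8.97 to 20.0 in Ruc_Low at 24 h, and its part in the gate results was not tested. The transcripts behind the reads of a library averaged 2255 to 3299 bases, with 18 of 72 libraries under 2800 bases, and the results that moved with this length are given with and without it. Of the 41 members, 11 share exon bases with another protein-coding gene in GENCODE 29, 5 on the same strand (CTSD, GLB1, HEXA, IDS and MAN2B1), where part of the reads could have been assigned to the neighbour, and 6 on the opposite one (ACP2, CTSA, GALNS, IDUA, PPT1 and SGSH). The library kit marks strand, which keeps these 6 apart if strand was used in counting, and this is not given in the sources used here.

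The promoters were read for the TFEB and TFE3 element. No promoter sequence entered the list, but it was made by known lysosomal function, and many such genes are known targets of these factors. A higher share among the members than among all genes is therefore a description and not an independent test. The windows of all genes were not matched to the members for gene type or GC content. RefSeq promoter windows of 300 bases (250 before and 50 after the start, GRCh38.p14) could be matched to 30 of the 41 members. The core CACGTG was found in 10 of the 30 windows (33.3%), against 2396 of 27305 windows of all genes (8.77%), and the full TCACGTGA, which contains the core, in 5 of 30 (16.7%), against 321 of 27305 (1.18%). Both motifs are palindromes, so a match counts for both strands. The 10 members with the core were ARSB, CTSA, CTSD, CTSF, DPP7, GAA, GALNS, NEU1, PLBD2 and SCPEP1. The 100 bases before the start are printed for 5 of them. These passed the threshold between the gates or between Ruc_Total and Vehicle, GAA without and the others with a replicate block alone. GAA and DPP7 were higher in Ruc_Total at 24 h, CTSA and PLBD2 were lower there, and CTSD was higher in Ruc_High. ARSB and SCPEP1, called with the block between sorted and unsorted treated cells, are not printed. All are written 5′ to 3′ on the strand of the gene, with the motif in capitals.
GAA, chr17:80101481-80101580, strand +: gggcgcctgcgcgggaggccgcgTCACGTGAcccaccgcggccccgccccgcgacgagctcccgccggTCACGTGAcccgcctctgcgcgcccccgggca
DPP7, chr9:137114734-137114833, strand -: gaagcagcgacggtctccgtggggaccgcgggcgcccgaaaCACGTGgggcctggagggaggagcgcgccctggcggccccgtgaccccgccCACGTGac
CTSD, chr11:1763928-1764027, strand -: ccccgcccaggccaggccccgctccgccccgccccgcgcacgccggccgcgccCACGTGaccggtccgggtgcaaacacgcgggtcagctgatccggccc
CTSA, chr20:45891235-45891334, strand +: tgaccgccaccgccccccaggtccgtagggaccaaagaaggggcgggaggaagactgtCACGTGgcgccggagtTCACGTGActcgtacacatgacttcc
PLBD2, chr12:113358487-113358586, strand +: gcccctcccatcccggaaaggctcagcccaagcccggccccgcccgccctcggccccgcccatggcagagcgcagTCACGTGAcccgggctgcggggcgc
Counted back from the start site, the first base of the core lay at -76 and -31 in GAA, where both copies were the 8-base form, at -59 and -8 in DPP7, at -47 in CTSD, at -42 and -25 in CTSA and at -24 in PLBD2. A match is a description of the letters in the window and was not read as a bound site.

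The members spanned a wide range of levels. On the TPM scale, which corrects for transcript length, the mean over 24 samples was 490 for PSAP (319 to 901 between samples), the precursor of saposins A to D, and 231 for NPC2, which carries cholesterol in the lumen. These were followed by GRN (136), which encodes progranulin, PPT1 (113), a thioesterase that removes palmitate from proteins, and the aspartic protease CTSD (102). Next came the dipeptidyl peptidase DPP7 (96.7), the alpha-mannosidase MAN2B1 (77.8) and the cysteine protease CTSB (74.2). These 8 members gave 71.4% of the TPM of all 41, and PSAP and NPC2 alone gave 39%. In all 25 members exceeded 10 TPM, down to ARSA (10.0), and 4 were under 1 TPM, namely CTSH (0.886), CTSO (0.666), CTSS (0.463) and CTSF. The levels of the glycosidases ran from MAN2B1 through GAA (42.7), HEXA (39.2) and GLB1 (36), whose ranges between samples overlapped, down to MANBA (2.77), those of the sulfatases from SGSH (41.8) to ARSB (3.2), and those of the lipid and phosphate hydrolases from PPT1 to PLBD2 (3.46). MAN2B1 had a wide range in TPM, 38.1 to 159, although its read counts ranged only from 128 to 184 CPM, so its levels varied more on the TPM scale than in reads.

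**Figure D1:**
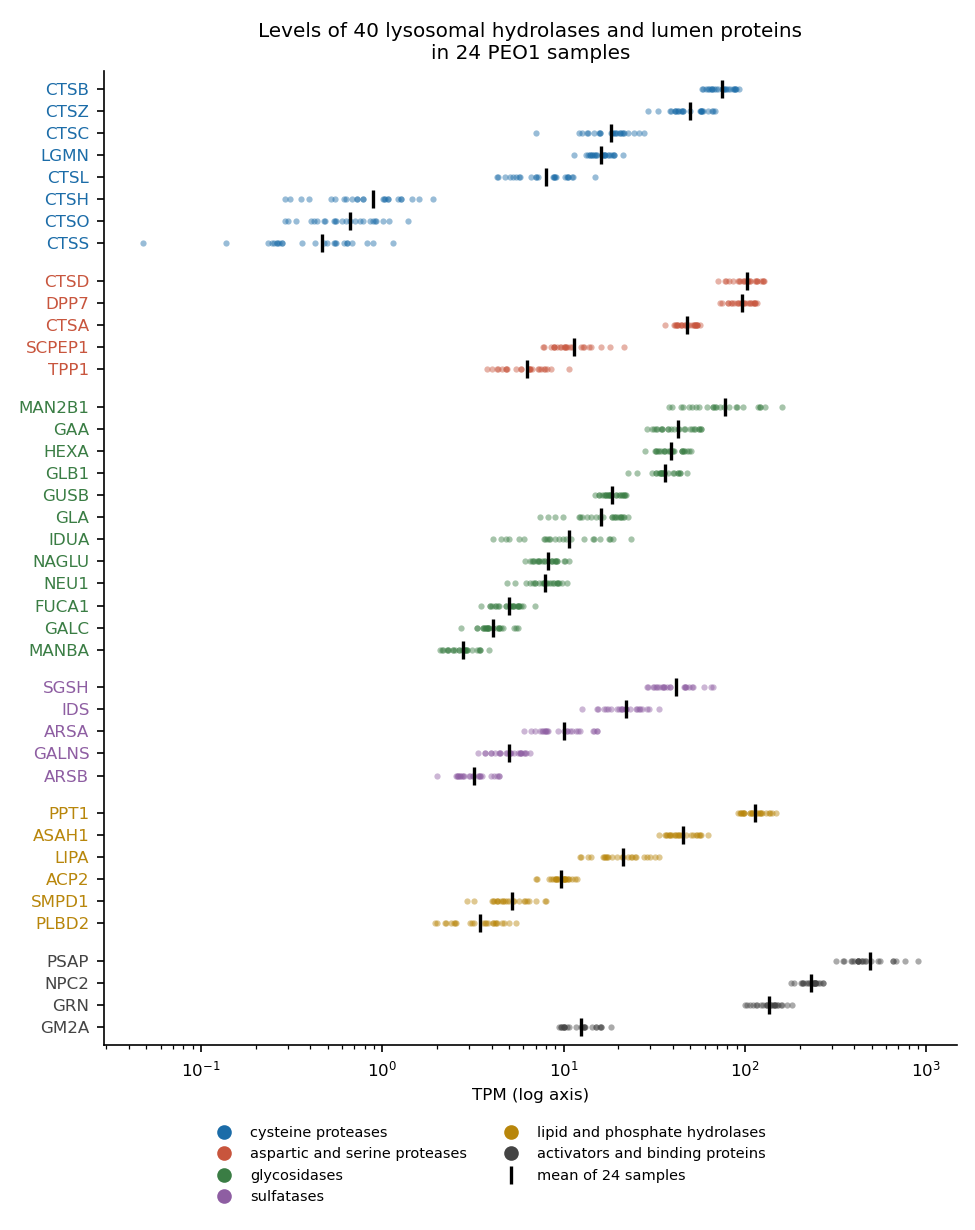
TPM (log axis) of the 40 members tested in each of the 24 samples, coloured by class, with a black bar at the mean. The activators PSAP, NPC2 and GRN sit highest, from 100 to 901 TPM, and CTSH, CTSO and CTSS lie mostly under 1 TPM.

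Between the gates, the read counts of the lumen genes leaned towards Ruc_High at both times, but by little for each gene, and none passed edgeR's quasi-likelihood test over all 20110 genes (Benjamini-Hochberg adjusted p under 0.05). At 2 h, 0 of 40 members were called, beside 0.00497% of all genes, and 2 had an unadjusted p under 0.05, beside 3.23% of all genes. DESeq2 called 0 members at 2 h (0.244% of all genes) and 0 at 24 h (0.378%). Of the 40 members, 34 were above 0 and 6 below, with a median of 0.14 on the log2 scale, where all genes had a median of -0.002 and 49.5% above 0. The median by replicate was 0.14, 0.13 and 0.09. At 24 h, 0 of 40 were called again (0.109% of all genes), 5 had an unadjusted p under 0.05 (4.10% of all genes), 31 were above 0 and 9 below, and the median was 0.12, with -0.007 and 48.4% above 0 over all genes. The median by replicate was then 0.16, 0.12 and 0.14. Counted gene by gene, 19 members were higher in Ruc_High in 3 of 3 replicates at 2 h and 2 lower (15.6% and 13.2% of all genes), and 20 were higher and 6 lower at 24 h (18.3% and 16.6%). The samples of Ruc_High lay wholly above those of Ruc_Low for 3 members at 2 h (3.81% of all genes) and wholly below for 0 (2.52%). At 24 h these counts were 7 above (5.24%) and 2 below (3.53%). The summed TPM of all members was 1957 ± 194 in Ruc_High and 1705 ± 201 in Ruc_Low at 24 h, and 1881 ± 139 in Ruc_High and 1715 ± 210 in Ruc_Low at 2 h (SD, n = 3 each). At both times the groups overlapped, while replicate by replicate the sum was higher in Ruc_High in 3 of 3 at 24 h (1878, 2179 and 1815 in Ruc_High, against 1574, 1936 and 1605 in Ruc_Low) and in 2 of 3 at 2 h. The share of gene reads in the members had a median of 0.322% in Ruc_High and 0.288% in Ruc_Low at 24 h, and of 0.318% in Ruc_High and 0.289% in Ruc_Low at 2 h (9 libraries each).

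**Figure D2:**
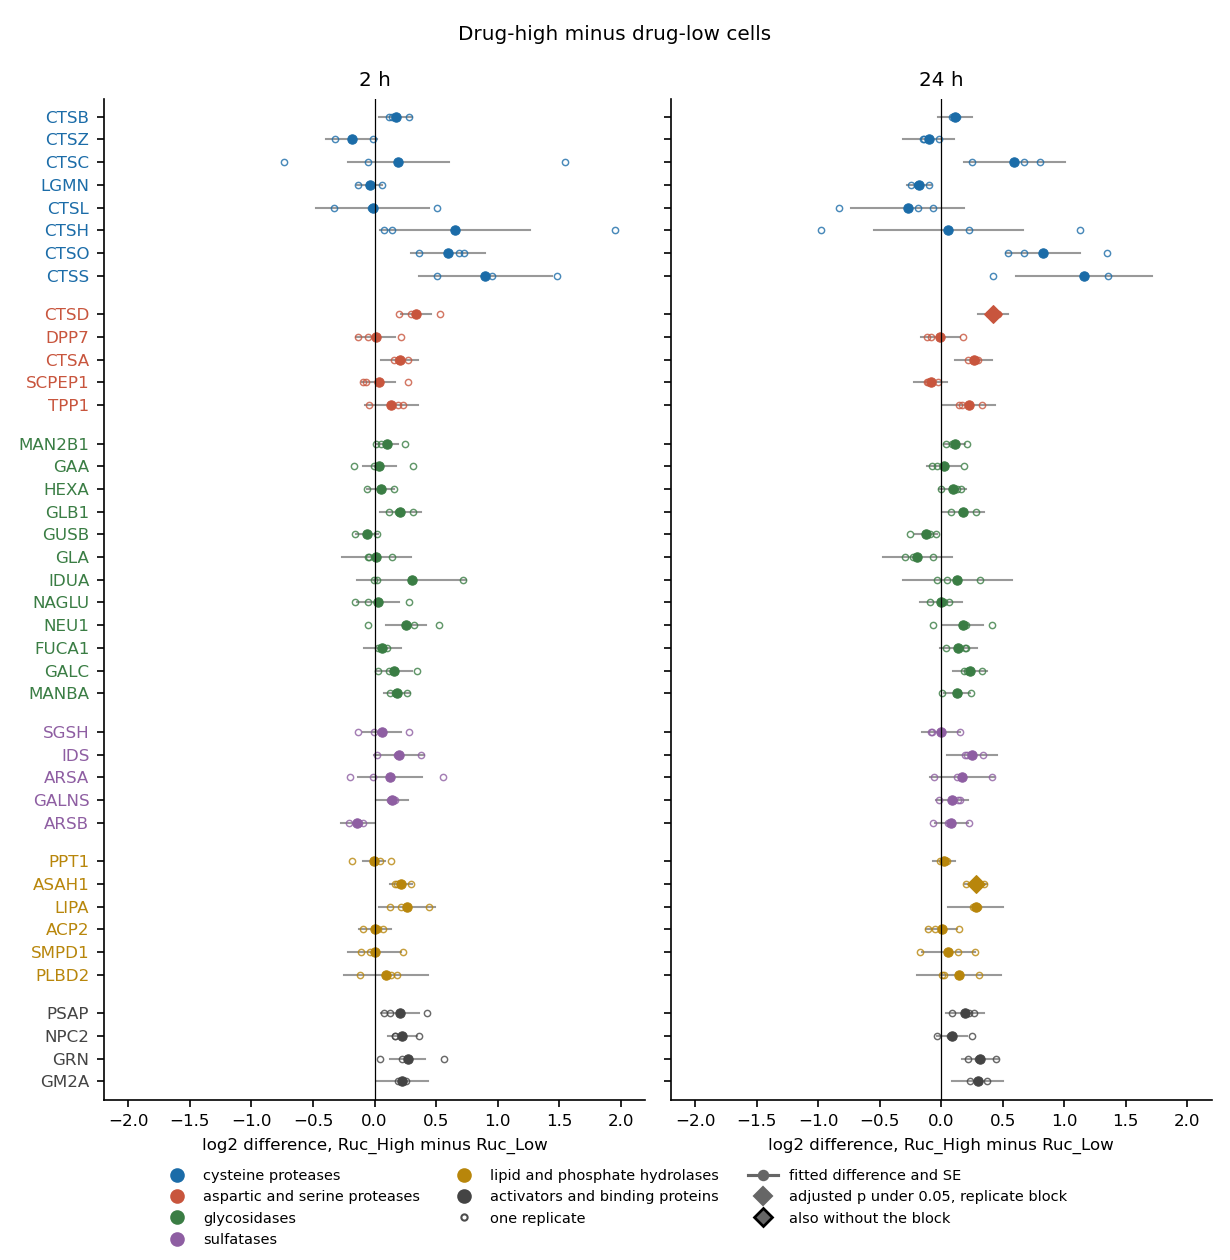
Log2 difference of Ruc_High minus Ruc_Low for the 40 members tested at 2 h (left) and 24 h (right), with the fitted value and its SE (filled point and line) and each of 3 replicates (open circles). Diamonds mark CTSD and ASAH1, the members past the threshold with the replicate block at 24 h, and most points lie to the right of 0 (34 of 40 and 31 of 40).

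Samples of the 8 groups share replicate numbers in the labels, and the study states for its imaging and FACS experiments, without naming these RNA libraries, that replicates came from different days. With the replicate number added to the model as a block, the gate comparison at 24 h called 2 members higher and 0 lower (0.597% and 0.0149% of all genes), while at 2 h it called 0 (0.378% of all genes). CTSD, which encodes cathepsin D, the main aspartic protease of the lumen (ENSG00000117984.13, chromosome 11, 1752752 to 1764573 in GRCh38), had 249.8, 302 and 245.5 CPM in Ruc_High at 24 h, against 189, 219.7 and 188 CPM in Ruc_Low. The groups did not overlap, and the difference was 0.42 with an SE of 0.12 (adjusted p = 0.485 from edgeR without the block and 0.0288 with it). At 2 h, CTSD had 323, 323 and 270.1 CPM in Ruc_High, against 224, 282 and 219.6 CPM in Ruc_Low, a difference of 0.34 with an SE of 0.12 (adjusted p = 1 from edgeR and 0.136 with the block). There the groups overlapped, since replicate 3 of Ruc_High lay below replicate 2 of Ruc_Low. In cells that were not sorted CTSD was at 276, 304 and 242.5 CPM in Ruc_Total and 243, 296 and 284 CPM in Vehicle at 24 h, which is the range of Ruc_High rather than that of Ruc_Low. These cells were harvested differently, and with the block CTSD was called lower in sorted than in unsorted treated cells at 24 h. Which gate departed from the unsorted level therefore cannot be read from these values. ASAH1, the acid ceramidase, had 47.7, 52.8 and 50.4 CPM in Ruc_High at 24 h, against 38.6, 41.5 and 43.9 CPM in Ruc_Low, with no overlap and a difference of 0.28 with an SE of 0.09 (adjusted p = 0.649 from edgeR and 0.0475 with the block). At 2 h ASAH1 had 43.2, 49.1 and 50.2 CPM in Ruc_High, against 38.6, 40.1 and 44.3 CPM in Ruc_Low, a difference of 0.21 (adjusted p = 1 from edgeR and 0.275 with the block). Leaving out any 1 replicate ended both calls at 24 h, with adjusted p of 0.157 to 0.729 for CTSD and 0.294 to 0.916 for ASAH1 from edgeR with the block. With a correction for GC content and the block, LIPA was called too at 24 h (adjusted p = 0.0444 from edgeR, with 0.86% of all genes called), and CTSD was called also at 2 h (adjusted p = 0.0464, with 0.453% of all genes called). Across the 40 members the gate difference correlated negatively with GC content, with Pearson's r of -0.31 at 2 h and -0.41 at 24 h. Spearman's rho, which uses ranks, was weaker at -0.19 and -0.33. Across 19877 genes with a value, r was -0.01 and 0.02, and rho 0.01 and 0.04. The difference between the times, tested as an interaction, was called for 0 members and 0% of all genes with and without the block, and 0 members and 0.895% of all genes had an unadjusted p under 0.05. DESeq2 called 0 members there and 0.00995% of all genes.

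By class, the activators and binding proteins showed the highest median at both times, 0.23 at 2 h and 0.25 at 24 h, and all 4 were higher in Ruc_High in 3 of 3 replicates at 2 h. GRN had 254, 299 and 261 CPM in Ruc_High at 24 h, against 187, 243 and 224 CPM in Ruc_Low, without overlap (0.31, adjusted p = 1 from edgeR and 0.555 with the block). PSAP had 656, 909.6 and 680.4 CPM in Ruc_High, against 546, 776 and 642 CPM in Ruc_Low, where replicate 2 was highest in both gates and the groups overlapped. At 2 h GRN had 317, 295 and 268 CPM in Ruc_High and 214, 286 and 229.8 CPM in Ruc_Low, and PSAP had 868, 874 and 728 CPM in Ruc_High and 646, 829 and 667 CPM in Ruc_Low. Thus replicate 1 gave the largest difference of both genes at 2 h. GM2A, the activator that presents ganglioside GM2 to hexosaminidase, differed by 0.30 at 24 h (23.04, 23.8 and 29.3 CPM in Ruc_High, against 17.8, 20.2 and 23.9 CPM in Ruc_Low), and NPC2 by 0.09. The summed TPM of the class was 936 ± 163 in Ruc_High and 766 ± 144 in Ruc_Low at 24 h (SD, n = 3 each).

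Among the proteases, the aspartic and serine class had a median of 0.14 at 2 h and 0.22 at 24 h, where CTSD, CTSA and TPP1 were higher in 3 of 3 replicates and SCPEP1 was lower in 3 of 3. The cysteine class was mixed, with medians of 0.18 and 0.08 and members on either side of 0. CTSC, which encodes the dipeptidyl peptidase that activates serine proteases of granules, had the largest value among members above 5 CPM at 24 h, 0.60 with an SE of 0.41, at 30, 19.4 and 23.3 CPM in Ruc_High and 17.2, 16.4 and 14.6 CPM in Ruc_Low. These groups did not overlap, yet at 2 h its replicates ranged from -0.73 to 1.54, and its adjusted p was 1 from edgeR at both times. CTSL, LGMN and CTSZ lay on the other side in 3 of 3 replicates at 24 h. CTSL had 9.49, 11.4 and 4.31 CPM in Ruc_High and 10.8, 11.9 and 7.67 CPM in Ruc_Low, and LGMN, the asparaginyl endopeptidase that trims cathepsins, had 19.5, 18.5 and 19.7 CPM in Ruc_High and 20.9, 21.9 and 22.5 CPM in Ruc_Low. Only the values of LGMN did not overlap, at a difference of -0.18 (adjusted p = 1 from edgeR and 0.655 with the block). CTSZ had 80.0, 95.5 and 72.2 CPM in Ruc_High and 80.5, 119.5 and 82.1 CPM in Ruc_Low at 2 h, the lowest value of that comparison among members above 5 CPM, -0.19. CTSB, the most abundant of the class, differed by 0.17 at 2 h and 0.11 at 24 h. Values of similar or larger size belonged to CTSS (0.90 at 2 h and 1.16 at 24 h), CTSO (0.60 and 0.83) and CTSH (0.65 and 0.06), which were under 3 CPM in every sample and had adjusted p of 0.913 to 1 from edgeR.

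Among the enzymes that cut sugars, sulfates and lipids the medians lay between 0.05 and 0.13. The 12 glycosidases had medians of 0.08 at 2 h and 0.12 at 24 h, with 11 and 9 above 0, and the 5 sulfatases had medians of 0.13 and 0.09. IDUA, the iduronidase of heparan and dermatan sulfate breakdown, had 29.2, 19.4 and 12.3 CPM in Ruc_High at 2 h and 17.8, 19.5 and 12.2 CPM in Ruc_Low, so that its difference of 0.30 came from replicate 1. ARSB, the sulfatase of N-acetylgalactosamine 4-sulfate, had 9.94, 10.6 and 12.9 CPM in Ruc_High and 10.8, 12.2 and 13.8 CPM in Ruc_Low at 2 h. GUSB had 38.2, 35.5 and 33.7 CPM in Ruc_High and 37.8, 39.5 and 35.1 CPM in Ruc_Low. In both genes the groups overlapped. Replicate by replicate, ARSB was lower in Ruc_High in 3 of 3, and GUSB was lower in replicates 2 and 3 and slightly higher in replicate 1. At 24 h the lowest value of the glycosidases was that of GLA, alpha-galactosidase A, with 15.9, 12.6 and 19.2 CPM in Ruc_High and 16.7, 15.4 and 22.4 CPM in Ruc_Low (-0.20). GAA, the acid alpha-glucosidase, and NAGLU, a further enzyme of heparan sulfate breakdown, differed by 0.04 and 0.03 at 2 h and by 0.02 and -0.001 at 24 h. The 6 lipid and phosphate hydrolases had medians of 0.05 and 0.10, with ASAH1 and LIPA, the acid lipase of cholesteryl esters, as the highest. LIPA had 26.6, 33.4 and 37.1 CPM in Ruc_High at 24 h and 21.96, 27.9 and 30.1 CPM in Ruc_Low, higher by 0.26 to 0.30 in each replicate while the replicates themselves differed more than the gates. The 9 tested members with the CACGTG core had a median of 0.09 at 2 h and 0.09 at 24 h, and the 20 tested members with a window but no core had 0.15 and 0.12.

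**Figure D3:**
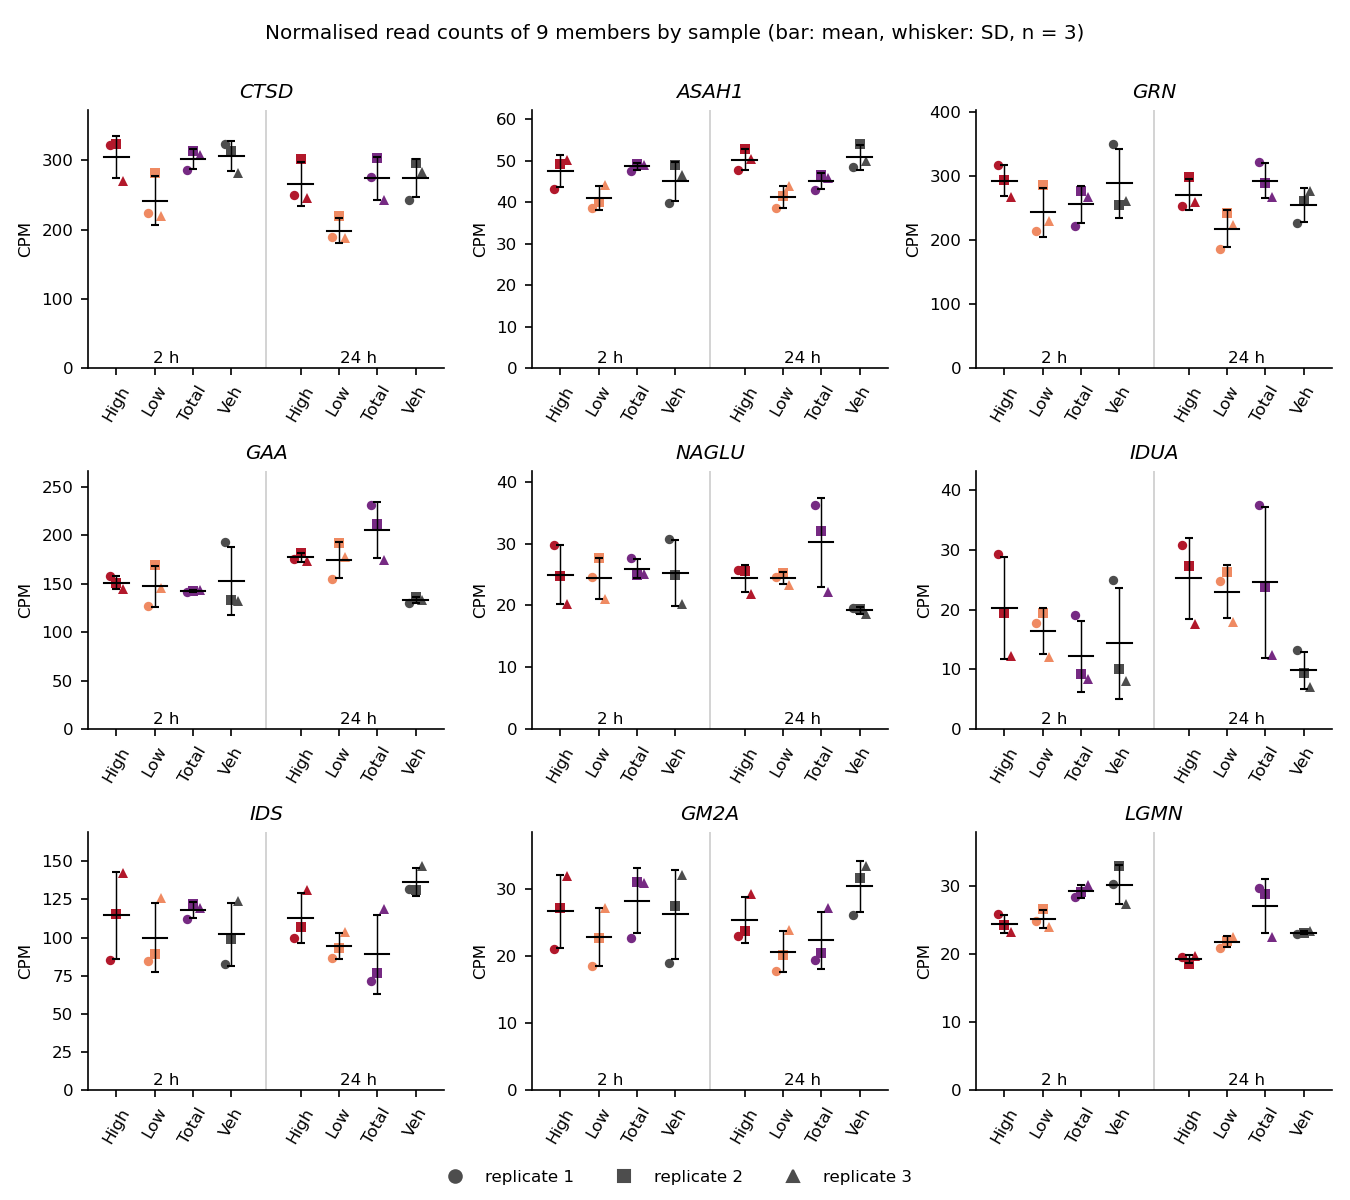
Normalised read counts (CPM) of 9 members in every sample, with Ruc_High, Ruc_Low, Ruc_Total and Vehicle at 2 h and at 24 h from left to right, a bar at the mean and whiskers of 1 SD (n = 3). CTSD in Ruc_Low at 24 h (188 to 219.7 CPM) lies under the other 3 groups, and GAA in Vehicle at 24 h (130.3 to 137 CPM) under all samples of the 3 treated groups. Ruc_High and Ruc_Low were sorted and harvested differently from Ruc_Total and Vehicle.

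In unsorted cells, rucaparib against Vehicle at 2 h gave small differences among the members. Of 40 members 0 were called (0.0249% of all genes, and 0 members and 0.144% of all genes with the block), 22 were above 0 and 18 below, and the median was 0.03. HEXA, the alpha subunit of hexosaminidase, was the only member with an unadjusted p under 0.05, at 0.0497, beside 6.53% of all genes (0.23, adjusted p = 0.763 from edgeR), and DESeq2 called 0 members (0.482% of all genes). The comparison was uneven in replicate 1, where Vehicle had 193 CPM of GAA, 24.99 of IDUA and 54.01 of ARSA, against 133 and 133, 9.99 and 8.03, and 30.2 and 26.6 CPM in replicates 2 and 3 of Vehicle. Mean transcript length was 2714 bases in Vehicle replicate 1, 2745 bases in replicate 2 and 3073 bases in replicate 3. Replicate 1 of Vehicle also holds a library flagged below, with 22092472 reads and 26731 genes detected. The part of length or of this library in these values was not tested.

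At 24 h, 2 glycosidases rose in Ruc_Total relative to Vehicle and 0 members fell, where 2.2% of all genes were called higher and 1.16% lower. GAA (ENSG00000171298.12, chromosome 17, 80101556 to 80119879) had 232, 212 and 175 CPM in Ruc_Total, against 130.3, 137 and 134 CPM in Vehicle, without overlap. The difference was 0.62 with an SE of 0.13 (adjusted p = 0.0181 from edgeR). NAGLU (ENSG00000108784.9, chromosome 17, 42536172 to 42544449) had 36.3, 32.1 and 22.2 CPM in Ruc_Total, against 19.65, 19.4 and 18.6 CPM in Vehicle, a difference of 0.65 with an SE of 0.17 (adjusted p = 0.0429 from edgeR). In both genes replicate 3 gave the smallest rise, 0.39 for GAA and 0.25 for NAGLU. The sorted treated cells at 24 h also had GAA above Vehicle in every sample, at 176, 182 and 174 CPM in Ruc_High and 155, 192 and 178 CPM in Ruc_Low. Sorted cells differ from Vehicle in sorting and harvest as well as in the drug, and these cannot be told apart in this contrast. Without replicate 1 or replicate 2 these calls were lost (adjusted p of 0.0595 and 0.692 for GAA and 0.236 and 0.747 for NAGLU from edgeR), and without replicate 3 they held (0.0304 and 0.0155). The median of the 40 members was 0.02, beside 0.03 for all genes.

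With the replicate block the same comparison called 16 of 40 members, 8 higher (13.2% of all genes) and 8 lower (10.8% of all genes), which split the enzyme classes. Leaving out replicate 2 took this count to 0 (0.361% of all genes) and leaving out replicate 1 to 8 (8.99%), while 16 were called without replicate 3 (22.6%). Higher with the block were the glycosidases GAA, NAGLU, MAN2B1 and IDUA, the sulfatases ARSA and SGSH, the dipeptidyl peptidase DPP7 and the sphingomyelinase SMPD1. IDUA (ENSG00000127415.12, chromosome 4, 986997 to 1004506) had 37.5, 23.7 and 12.35 CPM in Ruc_Total, against 13.2, 9.37 and 7.07 CPM in Vehicle, the largest difference at 1.31 (adjusted p = 0.099 from edgeR and 0.00139 with the block). ARSA, which removes sulfate from sulfatide, had 57.9, 48.98 and 30.7 CPM in Ruc_Total, against 27.2, 25.7 and 22.85 CPM in Vehicle (0.86, adjusted p = 0.07 and 0.007). In both, replicates 1 and 2 were far above Vehicle and replicate 3 was closer. DPP7 had 158, 148 and 100.3 CPM in Ruc_Total, against 101, 97.2 and 86.8 CPM in Vehicle, and SGSH, the sulfamidase of heparan sulfate, had 150.3, 124 and 99.8 CPM, against 105, 93.5 and 94.3 CPM in Vehicle. MAN2B1 had 184, 173 and 169.6 CPM in Ruc_Total, against 140.5, 145 and 152 CPM in Vehicle, and SMPD1 had 12.6, 9.75 and 8.55 CPM, against 7.595, 8 and 7.13 CPM in Vehicle. The values of DPP7 and SGSH overlapped with Vehicle in replicate 3, while those of MAN2B1 and SMPD1 did not overlap. Their adjusted p with the block were 0.00541, 0.0407, 0.0197 and 0.023 in the order DPP7, SGSH, MAN2B1 and SMPD1.

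Lower with the block were CTSS, CTSA, GLA, GALC, IDS, LIPA, PLBD2 and GM2A. IDS, the iduronate sulfatase (ENSG00000010404.17, chromosome X, 149476990 to 149521096), had 71.6, 76.45 and 119 CPM in Ruc_Total, against 131.5, 131 and 147 CPM in Vehicle, without overlap, and fell by 0.62 (adjusted p = 0.0895 from edgeR and 0.00124 with the block). GM2A had 19.4, 20.5 and 27.2 CPM in Ruc_Total, against 26.1, 31.6 and 33.5 CPM in Vehicle (-0.44, adjusted p = 0.194 and 0.00267), where replicate 3 of Ruc_Total reached above replicate 1 of Vehicle. GLA had 9.38, 12.05 and 17.4 CPM in Ruc_Total, against 19.4, 22.6 and 21.7 CPM in Vehicle, and LIPA had 22.6, 27.03 and 35.5 CPM, against 32.55, 37.6 and 40.1 CPM in Vehicle. PLBD2 had 14.4, 13.6 and 27.5 CPM in Ruc_Total, against 21.3, 23.6 and 29.7 CPM in Vehicle, and CTSA, the protective protein of the galactosidase complex, had 86.0, 88.6 and 105 CPM, against 110.0, 115 and 123 CPM in Vehicle. The galactosylceramidase GALC had 8.39, 7.87 and 10.6 CPM in Ruc_Total, against 10.2, 11.6 and 11.6 CPM in Vehicle, and CTSS had 0.4735, 0.182 and 0.1495 CPM, against 0.472, 0.809 and 0.521 CPM in Vehicle. Of these, GLA and CTSA did not overlap between the groups, and every gene but CTSS was lower in 3 of 3 replicates. The samples of Ruc_Total lay wholly above Vehicle for 6 members (13.4% of all genes) and wholly below for 7 (11.2%).

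**Figure D4:**
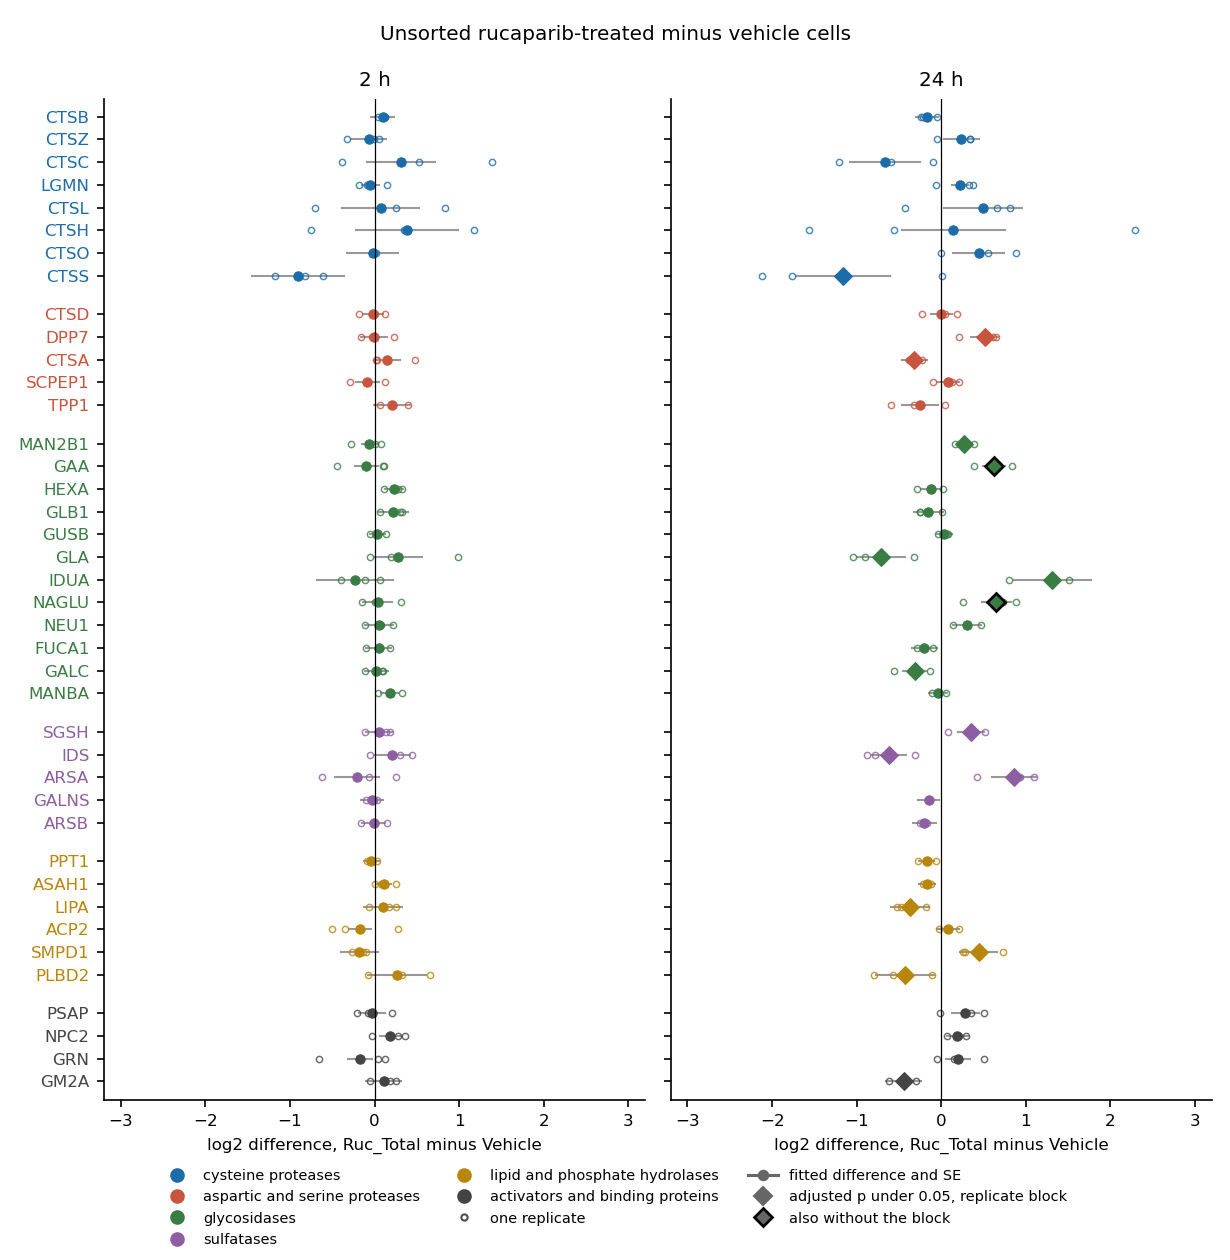
Log2 difference of Ruc_Total minus Vehicle for the 40 members at 2 h (left) and 24 h (right), drawn as in the plot of the gates. Outlined diamonds mark GAA and NAGLU, past the threshold with and without the block at 24 h, and plain diamonds the further members past it with the block only.

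The split at 24 h followed the base composition of the transcripts. The 8 members called higher with the block had a median GC content of 64.3% (59.8% to 68.6%), the 8 called lower 45.8% (37.6% to 58.2%) and the other 24 tested members 52.2% (40.2% to 64%). Across the 40 members the difference correlated with GC content (Pearson's r 0.70, Spearman's rho 0.67), and across 19877 genes with a value the trend was weaker (r 0.25, rho 0.36). These are descriptions across genes of the same libraries, and genes are not independent replicates. Mean transcript lengths also differed, at 2745, 2721 and 3232 bases for Ruc_Total at 24 h and 3119, 3108 and 3231 bases for Vehicle. Replicate 3, where the lengths were alike, is also the replicate with the smallest changes of GAA, NAGLU, IDUA, ARSA and IDS. Length is a different property from GC content. At 2 h, Vehicle replicate 2 (2745 bases) had GAA, IDUA and ARSA nearer to replicate 3 (3073 bases) than to replicate 1 (2714 bases). A response to the drug that differed between replicates and a difference in library composition cannot be told apart from these samples. With a smooth GC trend taken out of each sample, GAA differed by 0.25 (adjusted p = 0.134 from edgeR and 0.00661 with the block) and NAGLU by 0.26 (0.0402 and 0.00476). With this correction and the block, 13 members were called, 10 of them among the 16 above: IDUA, ARSA, NAGLU and GAA higher (11.6% of all genes), and CTSA, CTSB, CTSD, GALNS, GLA, GM2A, IDS, LIPA and PLBD2 lower (9.99% of all genes). With mean transcript length added to the block as a covariate, NAGLU and IDUA were called higher (3.58% of all genes) and IDS, GM2A and PPT1 lower (3.07% of all genes). NAGLU, IDUA, IDS and GM2A were thus called by each of these 3 fits with the block, and GAA by 2 of them.

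**Figure D5:**
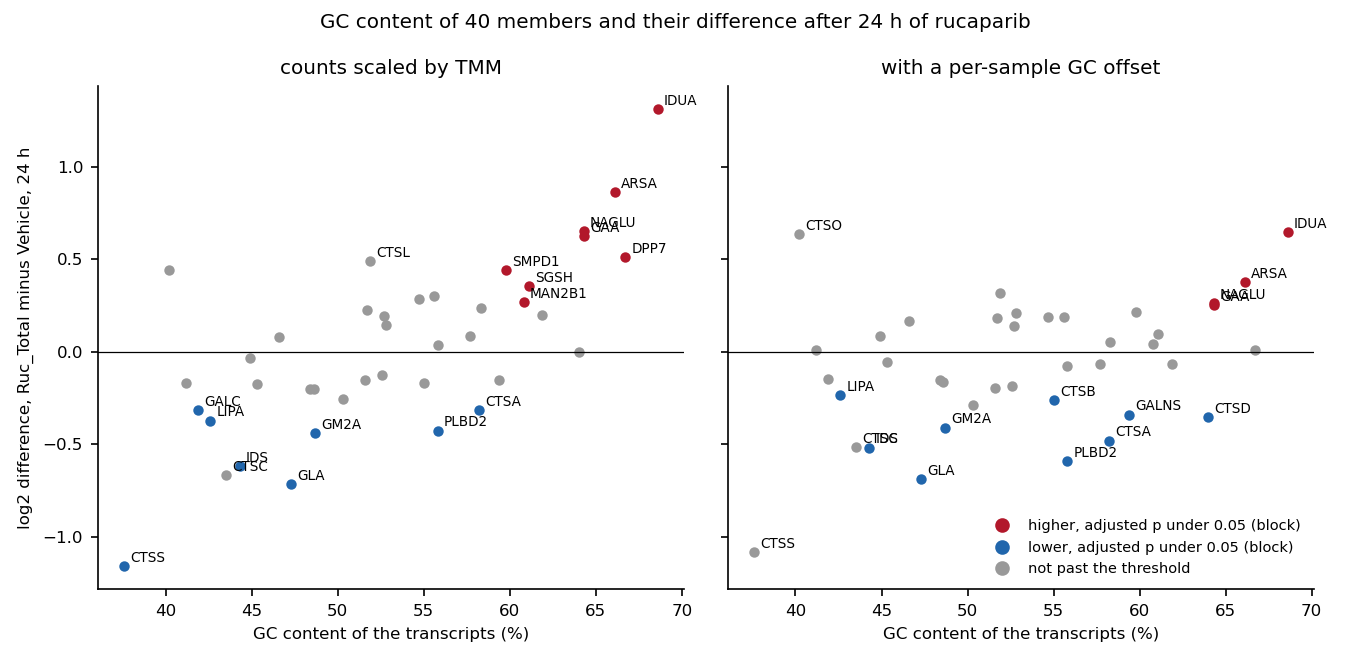
Log2 difference of Ruc_Total minus Vehicle at 24 h against the GC content of the transcripts (%) for 40 members, from counts scaled by TMM (left) and with a smooth GC trend of each sample taken out (right), coloured by the calls of each fit with the replicate block. At left all 8 higher members lie at 59.8% GC or more, and at right IDUA, ARSA, NAGLU and GAA are called higher, GAA and NAGLU at 0.25 and 0.26.

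The treated against Vehicle difference at 24 h was also set against that at 2 h in an interaction test. Without the block edgeR called 0 members (0.139% of all genes), 11 had an unadjusted p under 0.05 (21% of all genes), and DESeq2 called 1 (4.33% of all genes). With the block 16 were called: DPP7, GAA, NAGLU, MAN2B1, IDUA, ARSA and SMPD1 as more positive at 24 h (9.08% of all genes), and CTSA, TPP1, GLA, GLB1, IDS, ASAH1, LIPA, PLBD2 and GM2A as more negative (9% of all genes). The sizes were 1.54 for IDUA, 0.72 for GAA, -0.99 for GLA and -0.83 for IDS, and in each the replicate 1 value was the largest, the replicate with the high Vehicle values of GAA and IDUA at 2 h. With the length covariate and the block 2 members were called (3.85% of all genes).

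Cells that went through the sorter, taken as the mean of Ruc_High and Ruc_Low, had lower normalised counts of several members than Ruc_Total. Here sorting, detachment and the harvest cannot be told apart. Without the block, calls were no more frequent among the members than among all genes. At 24 h, LGMN and MAN2B1 fell and 0 members rose (5.15% of all genes were called lower and 4.34% higher). LGMN had the values given above in Ruc_High and Ruc_Low, against 29.7, 28.8 and 22.4 CPM in Ruc_Total, a difference of -0.40 with an SE of 0.08 (adjusted p = 0.00833 from edgeR). MAN2B1 had 147, 162 and 153 CPM in Ruc_High and 128, 152.5 and 149 CPM in Ruc_Low, against 184, 173 and 169.6 CPM in Ruc_Total (-0.24, adjusted p = 0.046 from edgeR). In LGMN the difference of replicate 3 was -0.09, against -0.56 and -0.52 in replicates 1 and 2. With the block TPP1, the tripeptidyl peptidase, was higher (10.8% of all genes) and LGMN, CTSD, DPP7, SCPEP1, NAGLU, MAN2B1, SMPD1, PPT1 and PSAP were lower (13.9%). The calls of LGMN and MAN2B1 without the block were lost without replicate 1 (adjusted p = 0.204 and 0.311 from edgeR) and without replicate 2 (0.427 and 0.432), and that of MAN2B1 also without replicate 3 (0.129). PSAP differed by -0.38 (adjusted p = 0.00759 from edgeR with the block), with 908, 1042 and 779 CPM in Ruc_Total. TPP1 had 26.4, 23.9 and 33.8 CPM in Ruc_High and 23.9, 21.3 and 26.9 CPM in Ruc_Low, against 18.2, 15.1 and 25.8 CPM in Ruc_Total. At 2 h edgeR called 0 members (2.41% of all genes), 6 had an unadjusted p under 0.05 (18.1% of all genes), and DESeq2 called 1 (6.74% of all genes). With the block 8 were called, with IDUA higher (6.62% of all genes) and LGMN, HEXA, FUCA1, ARSB, LIPA, PPT1 and NPC2 lower (8.28%). HEXA, at -0.35, had 43.1, 37.4 and 41.7 CPM in Ruc_High and 38.7, 39.1 and 40.1 CPM in Ruc_Low, against 48.3, 53.5 and 50.7 CPM in Ruc_Total, without overlap. PPT1 had 191, 178 and 204 CPM in Ruc_High and 174, 202 and 198 CPM in Ruc_Low, against 214.5, 215 and 229.5 CPM in Ruc_Total. In sorted cells NPC2 differed by -0.24, the fucosidase FUCA1 by -0.27 and ARSB by -0.28.

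Further genes of the same system were counted beside the members. Of 23 other lumen proteins, 15 genes of hydrolase delivery (mannose 6-phosphate tagging, receptors, adaptors and sulfatase activation) and 6 inhibitors of cathepsins, 0 were called between Ruc_High and Ruc_Low at either time, with or without the block. At 24 h 19 of the 23 other lumen genes and 13 of the 15 delivery genes were above 0, with medians of 0.10 and 0.07, and at 2 h 14 and 10, with medians of 0.08 and 0.03. Of the 3 tested genes of TFEB, TFE3 and MITF, 0 were called between the gates, and TFE3, the most abundant of them, differed by -0.10 at 2 h and -0.21 at 24 h (adjusted p = 1 and 0.972 from edgeR). At 24 h it had 104.7, 102.4 and 120.3 CPM in Ruc_High, against 124.9, 125.5 and 127.6 CPM in Ruc_Low, without overlap. After 24 h of rucaparib in unsorted cells, the serpins SERPINB1 and SERPINB6, which inhibit cathepsin G and other serine proteases, rose by 0.55 and 0.76 (adjusted p = 0.0317 and 0.0275 from edgeR). SERPINB6 had 107, 105 and 68.75 CPM in Ruc_Total, against 56.2, 57.97 and 52.4 CPM in Vehicle. With the block CST3, a cystatin that inhibits cysteine cathepsins, also rose (0.61), as did TFE3 (0.25, adjusted p = 0.0791 from edgeR and 0.0115 with the block), at 122, 126 and 132 CPM in Ruc_Total, against 109.8, 105 and 105 CPM in Vehicle. Of the 15 delivery genes 2 were higher with the block, GNPTG and GGA1 (13.2% of all genes were called higher), and 5 lower (10.8% of all genes), GNPTAB, M6PR, SORT1, SCARB2 and GGA2, while of the other lumen genes PLD3 was higher.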

How the data were processed

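Estimated counts and TPM per transcript were deposited by the authors as 1 Salmon table per library, and the submitters' processing notes name cutadapt 4.7, DESeq2 1.44.0 and GRCh38. The version of Salmon is not given in the sources used here, and the text of the paper does not describe these poly(A), strand-specific libraries. Each table held 257369 transcripts, of which 194437 were assigned to genes by GENCODE 29 and 11676 through gene symbols. The remaining 51256, with 7.10% to 8.95% of a library's reads, were not used. Estimated counts were summed per gene and over the 3 libraries of a replicate number, then rounded. The labels give replicate numbers but do not say what the 3 libraries of a number are or name a day. They were treated as technical repeats, and the numbers as pairing samples, after a sentence of the reporting summary on imaging and FACS experiments (replicates on different days, technical replicates from separate wells) that does not name RNA libraries. Deviations from group means correlated at a median of 0.25 within a number (lowest -0.05, so not in every pair) and -0.11 between numbers. Deviations of the 3 replicates of a group cancel out, so a positive value within numbers makes the other negative. The value between numbers is therefore not separate evidence of pairing. No 2 libraries were identical, and within a replicate their chi-square per degree of freedom was at least 5.84.

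All 24 samples were fitted together in edgeR 4.0.16 (R 4.3.3): filterByExpr, TMM, quasi-likelihood, Benjamini-Hochberg over 20110 genes, threshold 0.05. CPM are TMM-scaled counts. The script was tested on simulated counts. Alternatives were the replicate block, DESeq2 1.42.0 and its size factors, other filters, an effective length offset, transcript length as a covariate, limma 3.58.1 on log2(TPM + 1), limma-voom, fits of the compared groups only, left-out replicates and left-out libraries under 2800 bases. A GC offset, and the last with the block, were chosen after seeing the data. The members and lists were chosen with earlier results of these data known. Values in every sample are given for members called in any comparison and for the 3 highest and 3 lowest above 5 CPM in each gate comparison. For members called only under sorting, or only in the interaction, some are given as differences alone. Replicate error sets the precision for most members, and counting error adds to it for those with few reads, such as CTSS. Results for some genes outside the members are not reported here.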

Additional observations from a re-analysis of the deposited data

Results flagged for a closer look

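The share of gene reads in the members held 2 libraries that stood apart from the other 8 of their group, in 8 groups of 9 libraries examined, where chance marks about 1 group in 20. In Ruc_Low at 2 h the highest library had 0.395% of its gene reads in the members, against 0.302% in the next and 0.260% in the lowest. It is library 2 of replicate 2, the shallowest of all at 17391033 reads, with a mean transcript length of 2351 bases and 32126 genes detected. In Vehicle at 2 h the highest library had 0.357%, against 0.317% in the next and 0.310% in the lowest, and it is library 1 of replicate 1, with 22092472 reads, a mean length of 2627 bases and 26731 genes detected. The other 70 libraries had 20791 to 24161 genes detected. Both fall under 2800 bases, and without such libraries the median difference of Ruc_High minus Ruc_Low over the members at 2 h was 0.10, against 0.14 with them. Their part in the 2 h results was not tested beyond this.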

How the results depend on the processing

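A percentage in parentheses after a count of members is the share of all genes called by the same fit. The directions of the gate medians held under all 20 alternatives, from 0.077 to 0.153 at 2 h and from 0.099 to 0.153 at 24 h, and no alternative without the replicate block called a member between the gates. With the block, 1 member was called between the gates at 2 h with the length covariate (0.726%, CTSD), 1 without libraries under 2800 bases (0.451%, LIPA) and 1 with the GC offset (0.453%, CTSD). At 24 h 2 were called with the block (0.612%), 2 with the length covariate (1.19%), 3 without libraries under 2800 bases (0.855%) and 3 with the GC offset (0.86%), and leaving out any replicate gave 0. The 2 h median was 0.102 with the effective length offset, 0.104 without libraries under 2800 bases, 0.077 on log2(TPM + 1) and 0.106 to 0.137 with a replicate left out, and the 24 h median 0.099 to 0.153. IDUA at 2 h ranged from -4.12e-05 without replicate 1 to 0.448 without replicate 2.

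For Ruc_Total minus Vehicle at 2 h, 3 members (TPP1, IDS and PLBD2) were called without libraries under 2800 bases and with the block (5.46%), and the median was -0.025 to 0.057 with a replicate left out (-0.022 to 0.067 with the block). At 24 h the count of members called was 16 with the block (24%), 0 with the effective length offset (0.612%), 5 with the length covariate and block (6.65%), 0 with the compared groups only (0.0501%), 1 without libraries under 2800 bases (3.28%) and 13 with the block added (17.9%), 13 with the GC offset and block (21.6%), 7 by DESeq2 (10.3%), 0 by limma on log2(TPM + 1) (0.383%) and 9 by limma-voom (9.09%). With a replicate left out it was 0 to 16 (0.0148% to 22.6%). The median became -0.134 on log2(TPM + 1). GAA and NAGLU each lost the threshold in 8 of 20 alternatives. The interaction called 16 with the block (18.1%), 2 with the length covariate (3.85%), 16 without libraries under 2800 bases and with the block (25.1%), 12 with the GC offset and block (14.3%), 1 by DESeq2 (4.33%), 1 by limma-voom (3.21%) and 0 to 14 with a replicate left out (0% to 24.5%).

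For sorted minus unsorted cells at 2 h, 8 were called with the block (14.9%), 14 with the length covariate (24.3%), 6 without libraries under 2800 bases and with the block (12.5%), 2 with the GC offset (3.7%) and 11 with the block added (16.2%), 1 by DESeq2 (6.74%), 1 by limma-voom (5.45%) and 0 to 3 with a replicate left out (0.00989% to 7.77%). The median was -0.095 at a minimum of 1 CPM, -0.020 with the effective length offset, -0.086 with the compared groups only, -0.046 without libraries under 2800 bases (-0.052 with the block), -0.015 on log2(TPM + 1) and -0.119 to -0.043 with a replicate left out (-0.127 to -0.043 with the block). At 24 h the counts were 0 without a filter (2.44%), 1 at a minimum of 1 CPM (11.5%), 10 with the block (24.7%), 0 with the effective length offset (4.88%), 5 with the length covariate (19.6%), 0 with the compared groups only (1.22%), 1 without libraries under 2800 bases (8.42%) and 5 with the block added (22.6%), 1 with the GC offset (13.2%) and 8 with the block added (28.5%), 4 by DESeq2 (15.1%), 0 by limma on log2(TPM + 1) (5.45%), 4 by limma-voom (12.4%) and 0 to 9 with a replicate left out (0.0247% to 23.1%). DPP7 there turned to 0.0935 with the effective length offset and 0.246 on log2(TPM + 1). LGMN lost the threshold in 8 and MAN2B1 in 13 of 20 alternatives. The causes were not tested. Over single members, 757 values kept their side, 142 crossed the threshold towards a call, 37 away from it and 3 turned sign.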
